A study of Mus musculus with 6 samples.

Results

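The genes followed here encode the enzymes of glycolysis and the transporter that supplies them with glucose, measured in the tibial growth plate of ATF6aKO, ATF6bKO and wild-type (WT) mice. The 10 genes were listed by name: Slc2a1, Hk2, Gpi1, Pfkl, Aldoa, Gapdh, Pgk1, Pgam1, Pkm and Ldha. Every non-control probe of the array whose RefSeq accession maps to one of these symbols was taken, which gave 20 of the 26582 probes with a named gene (10 of 20145 symbols). Gapdh had 7 probes, Gpi1 and Ldha had 3 each, and the other 7 genes had 1 each.

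All mice were male C57BL/6J animals aged 4 weeks, untreated, and each genotype had 2 arrays. ATF6aKO mice carry a knockout of ATF6a (gene Atf6) and ATF6bKO mice a knockout of ATF6b (gene Atf6b), a pair of membrane-bound transcription factors that are cleaved when unfolded proteins accumulate in the endoplasmic reticulum. The series title asks what this stress transducer does in long bone growth, and the tissue was taken by laser microdissection per the series' design, whereas the extraction protocol speaks of frozen hind limb bone. The labels do not say which part of each gene is deleted, whether RNA was pooled, or whether separate animals stand behind the arrays, so p-values measure only the spread from array to array, which may be technical.

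The 4 knockout arrays lay on 1 slide and were read in the red channel, and the 2 WT arrays lay on another slide and were read in their single channel, so slide, channel and genotype cannot be told apart wherever a knockout is set against WT. Between 86.9% and 96.7% of the spots were well above background on the 6 arrays. With 2 arrays a genotype, precision is limited throughout. Across all probes, knockout arrays correlated with WT arrays at r of 0.8508 to 0.9057, against 0.9704 or more between arrays of 1 knockout. The targeted genes did not separate from WT past the threshold: the log2 difference was -0.15 for Atf6 in ATF6aKO (limma adjusted p = 0.5) and -0.54 for Atf6b in ATF6bKO (adjusted p = 0.0834). Nor did they tell the knockouts apart, with ATF6aKO minus ATF6bKO at 0.06 for Atf6 (adjusted p = 0.993) and 0.11 for Atf6b (0.986), so genotypes are given here as labelled. All 12 listed chondrocyte marker genes were measured, and their summed intensity was 113400 to 138000 in ATF6aKO, 31750 to 67510 in ATF6bKO and 16830 to 21780 in WT. In bulk tissue, fewer cells of a type and less RNA per cell cannot be told apart.

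Glycolysis splits glucose into pyruvate and yields ATP without oxygen, and lactate dehydrogenase then turns pyruvate into lactate and restores the NAD+ that the pathway needs. Growth plate cartilage has no blood vessels of its own, and its chondrocytes are known to depend on glycolysis, which the hypoxia-inducible factors (HIF) drive by binding short response elements near many of these genes. Phosphofructokinase is the committed step of the pathway, and Gapdh, which makes NADH, is widely used as a reference gene.

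The promoters of 3 genes are shown because Pfkl and Ldha carried the largest differences from WT in each direction and Pgk1 is a textbook HIF target. These are the 250 bases before the start, from RefSeq on GRCm38.p6, read along the gene, with every ACGTG or GCGTG on either strand (cores of the HIF response element) in capitals. Pfkl is at chr10:78009808-78010057 on the minus strand, Pgk1 at chrX:106186850-106187099 on the plus strand and Ldha, at the first of its 2 starts, at chr7:46845554-46845803 on the plus strand.
Pfkl: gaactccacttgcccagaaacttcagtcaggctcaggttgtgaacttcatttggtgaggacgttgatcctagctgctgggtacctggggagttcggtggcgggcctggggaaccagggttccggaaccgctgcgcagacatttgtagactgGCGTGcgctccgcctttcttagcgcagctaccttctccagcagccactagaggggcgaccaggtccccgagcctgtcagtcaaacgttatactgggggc
Pgk1: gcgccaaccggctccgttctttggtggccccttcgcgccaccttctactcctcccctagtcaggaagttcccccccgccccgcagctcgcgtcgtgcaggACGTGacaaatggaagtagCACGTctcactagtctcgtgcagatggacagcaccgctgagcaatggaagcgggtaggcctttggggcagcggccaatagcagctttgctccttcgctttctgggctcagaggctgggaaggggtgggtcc
Ldha: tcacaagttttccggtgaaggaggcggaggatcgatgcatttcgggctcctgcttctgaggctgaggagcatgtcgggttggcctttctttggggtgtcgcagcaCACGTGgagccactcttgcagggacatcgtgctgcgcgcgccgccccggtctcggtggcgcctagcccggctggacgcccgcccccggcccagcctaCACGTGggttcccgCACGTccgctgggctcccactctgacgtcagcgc

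In windows from 250 bases before to 50 after the start, all 10 genes had a RefSeq promoter entry, with 14 starts in all. ACGTG on either strand was found in 9 of the 14 starts, against 19.6% of all 32851 promoters, and GCGTG in 6 starts, against 32.4%. By gene, counting any of its starts, ACGTG was found in 8 of the 10 genes and GCGTG in 5. The shares of all promoters are per start and have no counterpart by gene here. Ldha's first start held 7 matches, 5 of ACGTG and 2 of GCGTG, where the palindrome CACGTG is read once on each strand. Pgk1 held 2 matches of ACGTG, at 150 and 131 bases before the start, and Pfkl a single GCGTG at 99 bases. Gpi1 had neither motif in this window. A match describes letters only, and binding was not measured.

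ATF6aKO against WT asked how the pathway's transcripts stood on the arrays labelled as lacking ATF6a. Pfkl, Aldoa, 3 of 6 tested Gapdh probes and 1 Ldha probe were lower in ATF6aKO, and 1 Ldha probe was higher. Of the 19 probes tested, 7 passed the threshold of 0.05 on limma's Benjamini-Hochberg adjusted p, which is 36.8% against 41.9% of all 24907 named probes, a share near the background. Higher calls were 1 of 19 (20.1% of all probes) and lower calls 6 of 19 (21.8%). The arrays did not overlap with WT, with ATF6aKO higher, for 6 of 19 probes (34.6% of all probes) and, with ATF6aKO lower, for 7 (38.3%). The median log2 difference of the 19 probes was 0.06, beside -0.02 over all probes. In ATF6bKO against WT, 1 probe was higher and 7 were lower, which is 42.1% against 36.5% of all probes (16.6% higher and 19.9% lower). The ATF6bKO arrays lay wholly above WT for 1 of 19 probes (33.1% of all probes) and wholly below for 10 (39.4%). The probes lower there were the same 6 plus Pgk1. The median was -0.44 beside -0.05 over all probes. The comparisons share the WT arrays and are given side by side for that reason.

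**Figure D1:**
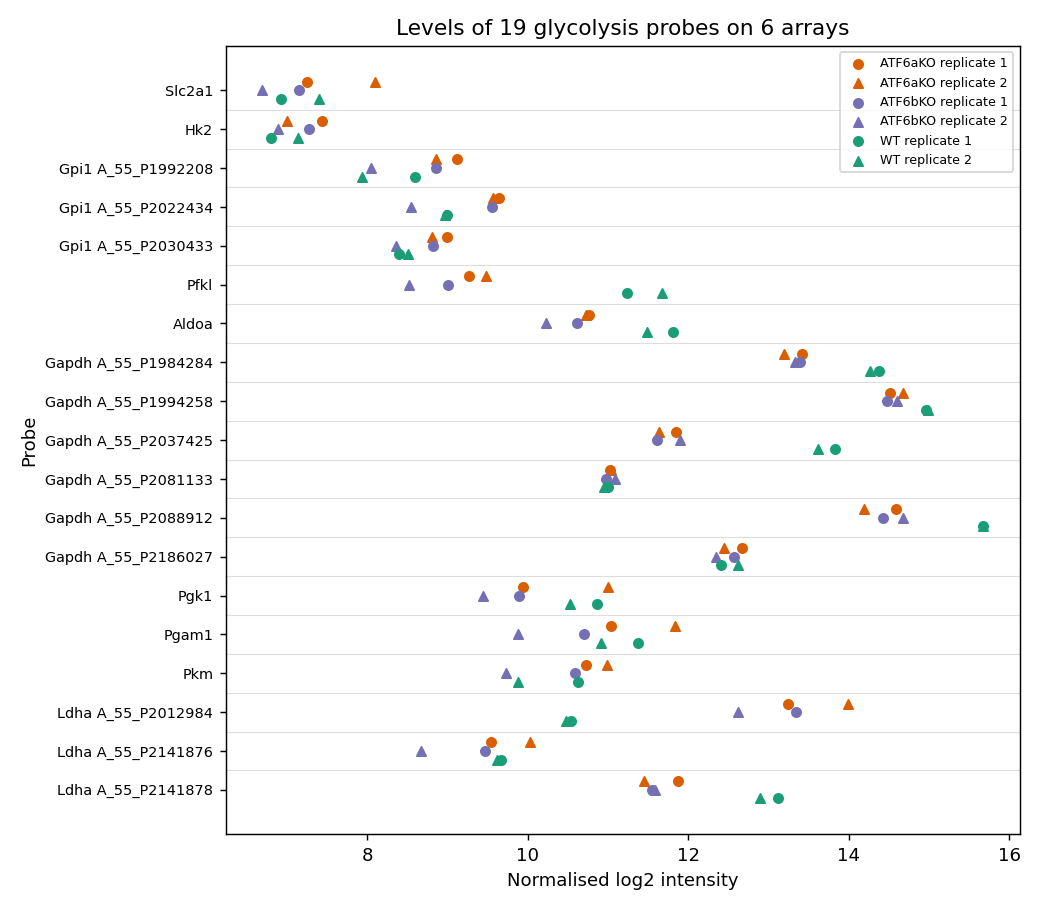
Normalised log2 intensity (horizontal axis) of each tested probe (vertical axis, in the order of the pathway) on each of the 6 arrays, with genotype by colour and replicate by marker shape. Positions of different probes are not comparable. For Pfkl the 4 knockout points, between 8.52 and 9.47, lie to the left of the WT points at 11.24 and 11.67.

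At the entry of glucose and its trapping, no difference passed the test. Slc2a1, which encodes the glucose transporter GLUT1, had a normalised log2 intensity of 7.24 and 8.10 on the ATF6aKO arrays, 7.15 and 6.69 on the ATF6bKO arrays and 6.93 and 7.40 on the WT arrays. The genotypes overlapped with WT, and the log2 difference from WT was 0.51 ± 0.32 (SE; adjusted p = 0.227) for ATF6aKO and -0.24 ± 0.32 (adjusted p = 0.577) for ATF6bKO, where scaling to the 75th percentile turned the sign (0.06). Hk2, the hexokinase that phosphorylates glucose, measured 7.44 and 6.99 on the ATF6aKO arrays, 7.27 and 6.88 on the ATF6bKO arrays and 6.80 and 7.14 on the WT arrays. All groups overlapped, and the differences from WT were 0.25 ± 0.23 (adjusted p = 0.417) and 0.11 ± 0.23 (adjusted p = 0.739).

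Gpi1, the isomerase that converts glucose 6-phosphate to fructose 6-phosphate, had 3 probes that moved alike over the arrays (r of 0.832 to 0.939, 6 arrays, as a description). The probe A_55_P2022434 measured 9.64 and 9.57 (ATF6aKO), 9.55 and 8.55 (ATF6bKO) and 8.999 and 8.974 (WT). Both ATF6aKO arrays lay above WT, while the ATF6bKO arrays lay on either side of it. The 3 probes differed from WT by 0.45 to 0.72 in ATF6aKO (adjusted p of 0.102 to 0.133) and by 0.06 to 0.19 in ATF6bKO (0.608 to 0.885), so none passed. In ATF6aKO, A_55_P1992208 passed without WT replicate 1 (adjusted p = 0.0212) and A_55_P2022434 without ATF6bKO replicate 1 or 2 (0.036 and 0.0364).

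Pfkl encodes the liver-type subunit of phosphofructokinase and showed the largest fall among the probes followed here. It measured 9.27 and 9.47 (ATF6aKO), 9.01 and 8.52 (ATF6bKO) and 11.24 and 11.67 (WT). Every knockout array lay below both WT arrays. The level was 4.24-fold lower in ATF6aKO (a log2 difference of -2.08 with an SE of 0.23; limma adjusted p = 0.000913, 2 arrays a genotype) and 6.46-fold lower in ATF6bKO (-2.69 ± 0.23; adjusted p = 0.000682). The order was WT, ATF6aKO, ATF6bKO, and the knockouts did not differ from each other past the threshold (0.61 ± 0.23; adjusted p = 0.718).

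Aldoa, the aldolase that splits fructose 1,6-bisphosphate, was lower in both knockouts. It measured 10.76 and 10.73 (ATF6aKO), 10.61 and 10.22 (ATF6bKO) and 11.81 and 11.49 (WT), again with no knockout array reaching WT. The fall was 1.87-fold in ATF6aKO (-0.91 ± 0.20; adjusted p = 0.00951) and 2.35-fold in ATF6bKO (-1.23 ± 0.20; adjusted p = 0.00362). In ATF6aKO the call was lost on the scanner software's processed signal (adjusted p = 0.0519) and without ATF6aKO replicate 2 (0.0557). The sign turns in the authors' deposited table, to 3.15 and 3.30, where the knockout columns follow the green channel and not the labelled red one.

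Gapdh gave answers that differed with the probe, although all of its probes carry accessions of the same gene. The range between its 6 tested probes was 2.04 in ATF6aKO against WT and 2.02 in ATF6bKO against WT. The medians over the 8 genes with as many tested probes were close to that, 2.1 and 1.96. A_55_P2037425 measured 11.84 and 11.64 (ATF6aKO), 11.61 and 11.90 (ATF6bKO) and 13.83 and 13.61 (WT). Its knockout arrays lay well under both WT arrays, with a log2 difference of -1.98 ± 0.18 (adjusted p = 0.000637) in ATF6aKO and -1.97 ± 0.18 (adjusted p = 0.000772) in ATF6bKO. A_55_P2088912 measured 14.60 and 14.20 (ATF6aKO), 14.43 and 14.68 (ATF6bKO) and 15.67 and 15.68 (WT), differences of -1.28 ± 0.19 (adjusted p = 0.00238) and -1.12 ± 0.19 (0.00453). A_55_P1984284 lay at 13.42 and 13.19, 13.40 and 13.34, and 14.38 and 14.26 in the same order, with differences of -1.02 ± 0.16 (0.00305) and -0.96 ± 0.16 (0.00455). These 3 probes fell in both knockouts, but in the authors' deposited table A_55_P2037425 and A_55_P1984284 had the opposite sign.

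The other tested Gapdh probes did not pass. A_55_P2081133 measured 11.03 and 11.04 (ATF6aKO), 10.98 and 11.08 (ATF6bKO) and 11.00 and 10.95 (WT), so that the 6 arrays were nearly level. A_55_P2186027 measured 12.67 and 12.45, 12.57 and 12.35, and 12.41 and 12.62, with the groups overlapping. Their differences from WT lay between -0.06 and 0.06 (adjusted p of 0.771 to 0.864). A_55_P1994258 differed by -0.38 ± 0.16 (0.0884) and -0.44 ± 0.16 (0.0657), with every knockout array below both WT arrays. The seventh probe, A_55_P1965725, was left out of the fit because its spot was flagged on WT replicate 2. Its unnormalised spot intensities were 21412 and 17322 in ATF6aKO, 16963.5 and 15692 in ATF6bKO, 62829 in WT replicate 1 and 34956 on the flagged spot.

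Pgk1, Pgam1 and Pkm, which carry out the ATP-forming and rearranging steps of lower glycolysis, were spread widely between replicates. Pgk1, phosphoglycerate kinase, measured 9.95 and 11.00 (ATF6aKO), 9.89 and 9.45 (ATF6bKO) and 10.87 and 10.53 (WT). Only the ATF6bKO arrays lay apart from WT, with a 2.04-fold fall (-1.03 ± 0.34; adjusted p = 0.0489), and the ATF6aKO difference was -0.22 ± 0.34 (adjusted p = 0.621). The ATF6bKO call was lost without WT replicate 1 (0.0974) and without either ATF6bKO array (0.0968 and 0.225), and the sign turns in the authors' deposited table.

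Pgam1, phosphoglycerate mutase, measured 11.03 and 11.83 (ATF6aKO), 10.70 and 9.87 (ATF6bKO) and 11.37 and 10.92 (WT). The ATF6bKO arrays were below WT, yet the difference of -0.86 ± 0.35 did not pass (adjusted p = 0.0923), and without WT replicate 2 it did (-1.09; adjusted p = 0.0458). Pkm, pyruvate kinase, measured 10.72 and 10.99 (ATF6aKO), 10.58 and 9.73 (ATF6bKO) and 10.62 and 9.87 (WT). The ATF6bKO and WT arrays overlapped, and the ATF6aKO difference was 0.61 ± 0.34 (adjusted p = 0.178), which passed without WT replicate 1 (0.98; adjusted p = 0.0295).

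Ldha, the subunit of lactate dehydrogenase that favours lactate formation, was the gene whose probes disagreed most. A_55_P2012984 measured 13.24 and 13.99 (ATF6aKO), 13.34 and 12.61 (ATF6bKO) and 10.53 and 10.47 (WT). Every knockout array was above WT, by 8.64-fold in ATF6aKO (3.11 ± 0.31; adjusted p = 0.000702) and 5.56-fold in ATF6bKO (2.48 ± 0.31; adjusted p = 0.0016). A_55_P2141878 measured 11.88 and 11.45 (ATF6aKO), 11.55 and 11.58 (ATF6bKO) and 13.12 and 12.89 (WT). Here every knockout array was below WT, by 2.54-fold in ATF6aKO (-1.34 ± 0.19; adjusted p = 0.00213) and 2.72-fold in ATF6bKO (-1.44 ± 0.19; adjusted p = 0.00205). A_55_P2141876 measured 9.54 and 10.02, 9.47 and 8.67, and 9.67 and 9.62, and did not pass (adjusted p of 0.711 and 0.147). Across the array 362 of 4859 genes with several tested probes (7.45%) had probes called both ways in ATF6aKO against WT. The range of 4.45 between the Ldha probes exceeded that of 99.8% of the 665 genes with 3 tested probes, where the median range was 1.06. No direction for Ldha as a gene is therefore given, and the probes' target sequences were not used here.

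**Figure D2:**
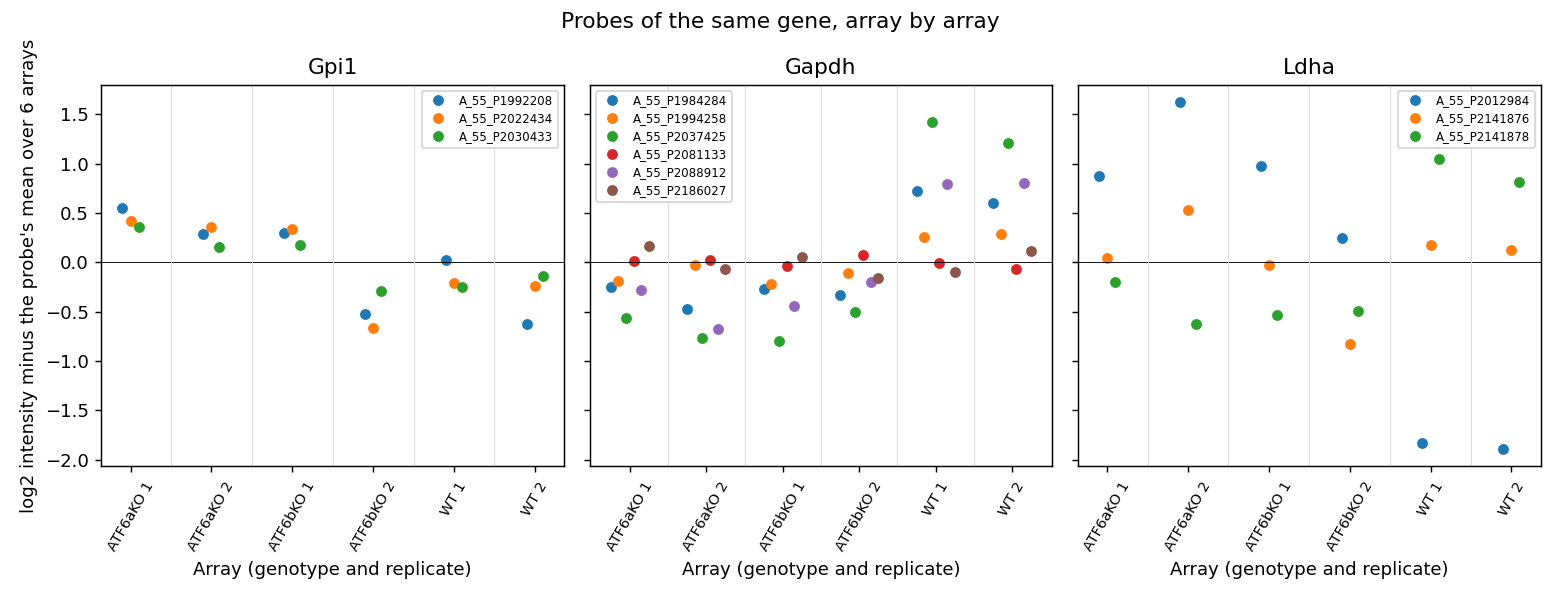
Log2 intensity of each probe minus that probe's mean over the 6 arrays (vertical axis) on each array (horizontal axis) for Gpi1, Gapdh and Ldha, with 1 colour per probe. The Gpi1 probes lie close together, whereas Ldha A_55_P2012984 is high on the knockout arrays and A_55_P2141878 is high on the WT arrays.

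ATF6aKO against ATF6bKO is the comparison made within 1 slide, where each genotype filled its own slide row. None of the 19 probes passed (limma smallest adjusted p = 0.631), nor did any of the 24907 probes (0%), of which 1605 (6.44%) had an unadjusted p below 0.05. Among the 19 probes 5 had an unadjusted p below 0.05, and 16 differences were above 0 and 3, all of Gapdh, below it, whereas the authors' deposited table had 3 above 0, 15 below and 1 at 0. The median was 0.33, beside 0.00 over all probes, and fell to 0.125 without ATF6bKO replicate 2. Pgam1 had the widest difference, 1.15 ± 0.35 (95% interval 0.332 to 1.96; adjusted p = 0.631), with both ATF6aKO arrays above both ATF6bKO arrays. The intervals of 14 probes include 0, and over all 19 they reach from -0.608 to 1.96, so differences of that size are not shown to be absent. For Gapdh A_55_P2081133 the interval was -0.353 to 0.36. The arrays of the genotypes did not overlap, with ATF6aKO higher, for 8 of 19 probes, against 20.6% of all probes, and with ATF6aKO lower for 0, against 16.4%.

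**Figure D3:**
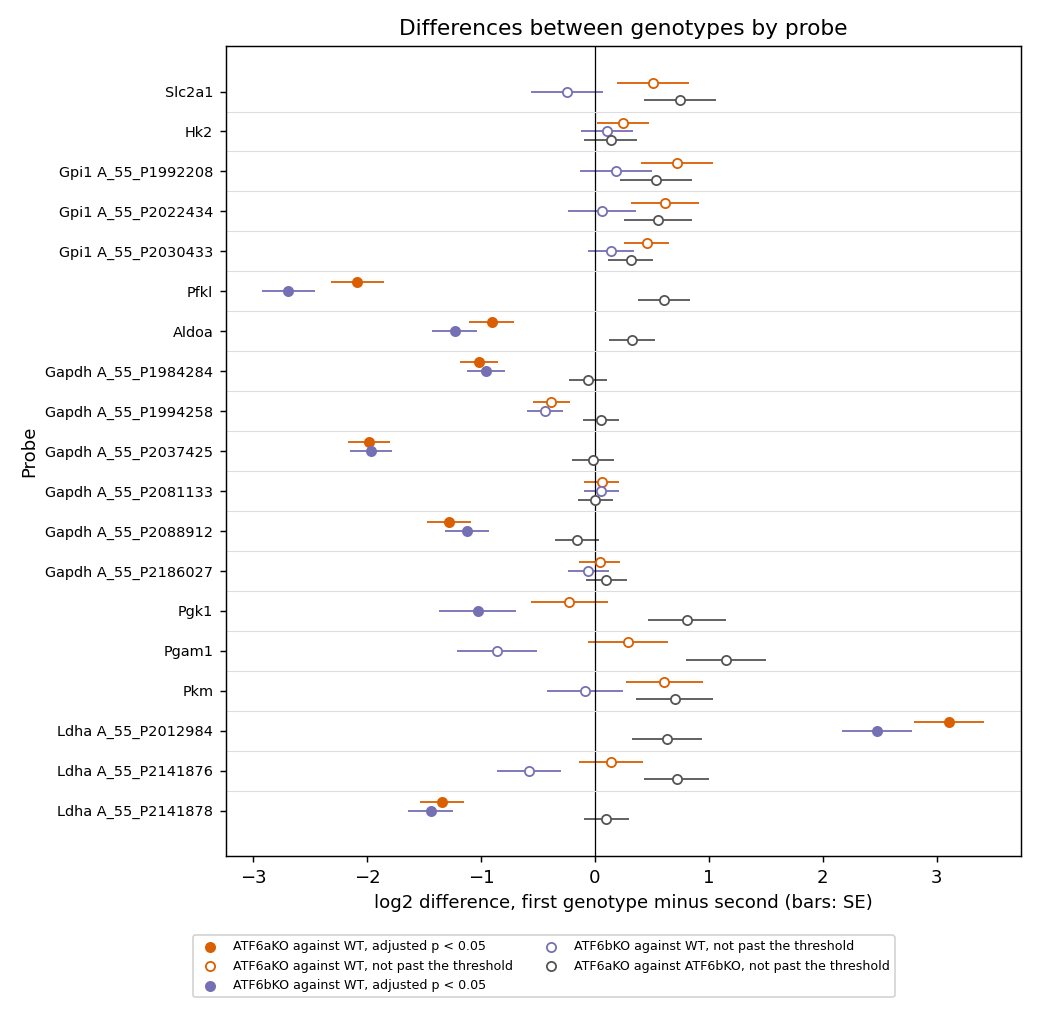
Log2 difference between genotypes (horizontal axis, first minus second, bars showing 1 SE) for each of the 19 tested probes (vertical axis) in the 3 comparisons, with filled points for limma adjusted p below 0.05. Pfkl lies at -2.08 and -2.69 and Ldha A_55_P2012984 at 3.11 and 2.48 against WT, and all points of ATF6aKO against ATF6bKO are open.

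Averaged over the brightest probe of each gene, the 10 genes deviated from their own mean by 0.06 and 0.36 on the ATF6aKO arrays, by -0.07 and -0.60 on the ATF6bKO arrays and by 0.16 and 0.09 on the WT arrays. Ldha entered this mean by A_55_P2012984, high in both knockouts, whereas A_55_P2141878 was low in them. The median deviation of the same probes was 0.04 and 0.46, -0.18 and -0.68, and 0.31 and 0.10 in that order. The lowest array was ATF6bKO replicate 2. Of the 6 arrays it had the smallest share of spots well above background, 86.9%, and the smallest median spot intensity, 146. It also had the lowest summed chondrocyte marker intensity of the knockout arrays, 31750. The WT arrays had lower sums still, 16830 and 21780, with mean deviations of 0.16 and 0.09. Neither the part of chondrocyte marker levels nor that of array brightness in the members' values was tested. Outside all lists, the probes nearest to the mean profile over the 6 arrays were those of Bccip, Dctn3 and Ppib (Pearson r of 0.9913, 0.9908 and 0.9903), out of 24679 compared.

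Neighbouring parts of the pathway were counted from lists. Among the other isozymes and transporters (28 probes of 24 genes), 3 probes rose and 12 fell against WT in each knockout, 53.6% in all, beside 41.9% (ATF6aKO) and 36.5% (ATF6bKO) of all probes. Slc2a5, a fructose transporter, was higher by 1.51 ± 0.17 (adjusted p = 0.00103) in ATF6aKO and 0.91 ± 0.17 (0.00666) in ATF6bKO. Among the enolases, Eno2 fell by 1.20 and 1.08 on the log2 scale. Eno3 differed by -0.51 (adjusted p = 0.0478) and -0.70 (0.0173). Eno1 went the other way, higher by 1.92 ± 0.37 (adjusted p = 0.00584) and 1.12 ± 0.37 (0.0475). Hk1, another hexokinase, had 1 probe at -1.41 and -1.45 that passed in both knockouts and another at 0.53 (adjusted p = 0.0614) and -0.12 (0.664) that did not. For the enzymes that set fructose bisphosphate levels, 2 of 8 probes rose and 2 fell in each knockout (50%). Pfkfb4 A_55_P1992959 was higher by 1.20 and 1.23. Pfkfb4 A_55_P2119332 differed by -0.90 and -0.99, but it was well above background only on the WT arrays (6.70 and 6.96). It lay at 5.82 to 6.00 on the knockout arrays and was kept through WT alone, so no direction is read from it.

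Of 22 probes for the fate of pyruvate and lactate, 6 rose and 3 fell in ATF6aKO (40.9%), and 3 rose and 4 fell in ATF6bKO (31.8%). Slc16a7, a carrier of monocarboxylates such as lactate, was higher by 1.45 ± 0.22 and 1.30 ± 0.22, and Bsg, the chaperone of such carriers, differed by -1.31 ± 0.18 and -2.03 ± 0.18. Other such carriers went both ways. Slc16a1 differed by -1.03 (adjusted p = 0.00299) and -0.86 (0.00684). Slc16a3 A_55_P2067505 was higher by 2.45 (0.00984) and 1.62 (0.0497). Slc16a3 A_55_P1959425 was 1.94 higher in ATF6aKO (0.0147), and its 1.155 in ATF6bKO did not pass (0.0941). Slc16a8 was not called. Of 17 probes for the pentose phosphate route and glycogen, 4 rose and 2 fell in ATF6aKO, and 2 rose and 4 fell in ATF6bKO (35.3% in each). Pygl, a glycogen phosphorylase, was 2.07 ± 0.27 higher in ATF6aKO (adjusted p = 0.00146), and its difference of 0.80 in ATF6bKO did not pass (0.0512). For Ugp2, which makes UDP-glucose, 1 of 2 probes was 2.83-fold and 2.72-fold higher and the other did not pass (log2 differences 0.31 and 0.05). Pgls, a pentose phosphate enzyme, differed by -0.70 and -0.74.

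Of 32 probes of hypoxia response genes, 10 rose and 6 fell in ATF6aKO (50% against 41.9% of all probes), and 4 rose and 4 fell in ATF6bKO (25% against 36.5%). For Arnt, the partner subunit of the HIF proteins, 1 probe was higher by 1.70 ± 0.18 and 1.49 ± 0.18, and the other stood at -0.44 and -0.50 without passing (adjusted p of 0.0992 and 0.0792). For Epas1, which encodes HIF-2 alpha, 1 of 3 probes differed by -2.18 ± 0.19 and -2.32 ± 0.19, and the other 2 did not pass, at 0.17 and -0.09 in ATF6aKO and -0.42 and -0.18 in ATF6bKO. None of the probes in these lists passed in ATF6aKO against ATF6bKO.

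Markers of other cell types were read beside these values. Of 13 chondrocyte probes 12 were higher in ATF6aKO than in WT, and in ATF6bKO 7 were higher and 1, Comp, was lower. Col2a1, the main cartilage collagen, stood 4.19 and 2.86 above WT. Skeletal muscle is a tissue rich in glycolytic enzymes. Its markers summed to 5598 to 7535 in ATF6aKO, 5734 to 6609 in ATF6bKO and 6411 to 6541 in WT. In each knockout 2 of 21 muscle probes were higher and 6 lower. Tnni2, the brightest, was 3.09 and 2.61 above WT, whose own arrays stood apart at 8.84 and 7.27. Atp2a1, named after its values were seen, differed by -1.26 and -1.41. Erythroid markers summed to 270300 to 281000, 256700 to 359900 and 268400 to 312800, sums that are nearly all Hemgn, at log2 levels of 17.957 to 18.449 and not called. The median log2 level over the list was 7.585 to 7.73 in ATF6aKO and 7.717 to 7.81 in ATF6bKO, but 9.53 on WT replicate 1 and 7.413 on WT replicate 2. In each knockout 2 of 11 erythroid probes were higher and 4 lower than WT, with Slc4a1, named after its values were seen, at -2.32 and -2.19, and Hbb-b1 and Ahsp not kept. Endothelial markers summed to 2851 to 3335, 3174 to 3301 and 5676 to 6249. Of their 15 probes 8 were lower and 0 higher in ATF6aKO, and 6 lower and 1 higher in ATF6bKO, with Kdr at -1.25 and -1.10. Macrophage and neutrophil markers summed to 11740 to 15950, 13880 to 14600 and 10620 to 10730, with Cd68 not kept. Most of each sum was Csf1r, the brightest, which was not called. The median log2 level over the list was 7.25 and 7.319 (ATF6aKO), 7.249 and 7.328 (ATF6bKO) and 7.53 and 7.521 (WT). Of the 18 macrophage and neutrophil probes 1 was higher and 9 lower in ATF6aKO, and 2 higher and 6 lower in ATF6bKO.

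The WT arrays differed from each other in several of these lists, as in the erythroid medians and in the endothelial ones (8.794 on replicate 1 and 8.125 on replicate 2). Osteoblast and osteocyte markers summed to 93740 for WT replicate 1 but only 3144 for WT replicate 2. The knockout arrays ranged from 2921 to 8139, with 1 of 10 probes higher and 3 lower in each knockout, Col1a2 the brightest and Bglap, Dmp1 and Phex not kept. Osteoclast markers summed to 22480 and 7772 on the WT arrays and 7766 to 8466 on the ATF6aKO arrays, with 2 of 14 probes higher and 1 lower in each knockout and Itgb3, the brightest, not called. The part of these cell types in the members' values was not tested. Without WT replicate 1, Pfkl, both called Ldha probes and the 3 called Gapdh probes kept their calls and directions, Pgk1 lost its call in ATF6bKO, and Pkm and Gpi1 A_55_P1992208 gained one in ATF6aKO.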

How the data were processed

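Growth plate RNA was amplified, labelled as cDNA and hybridised to Agilent mouse arrays, per the labels' protocols. The deposited scanner files hold spot intensity values made with version 10.7.1.1 of Agilent Feature Extraction (the submitters' processing notes). By the file headers, knockout arrays used a 2-channel protocol set for Cy5 and WT arrays a 1-channel protocol with a green channel, although the labels give Cy5 for all. The median spot and background intensity were used, since the deposited files give no mean. The authors' deposited table holds log2 values that follow the green channel on the knockout arrays. Its column medians were 0.2 and 0.1 (ATF6aKO), 0 and 0.227 (ATF6bKO) and -0.5 and -0.5 (WT), and how it was centred is unknown. It served only as an alternative.

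Here background was corrected with normexp (offset 50, limma 3.58.1, R 4.3.3), log2 was taken, control and outlier spots were dropped (288 probes lost), repeated spots were averaged and quantile normalisation was applied. Accessions were named through a RefSeq table of GRCm38.p6, and 29099 unnamed probes were not analysed here. A probe was kept when both arrays of some genotype had it well above background (24907), including all 19 unflagged member probes, which were so on all 6 arrays with none saturated. Genotypes were compared with lmFit and eBayes on all arrays. Fold sizes compare the same probe between genotypes. The procedure was run on simulated data with known changes in ATF6aKO only. That simulation had no slide or channel effect, so it does not speak to those effects in the comparisons with WT.

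The members and lists were chosen with earlier results of these data known. Named are all members, the called probe of smallest p each way in each pathway list, Atf6, Atf6b, the brightest marker of each cell type, and the 3 nearest profiles. Eno1, Eno3, Slc16a1, Slc16a3 and Slc16a8 were named after their values were seen. Alternatives covered scaling, filters, variance model, replicate block, probe choice, the authors' table and each array left out.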

Additional observations from a re-analysis of the deposited data

Results flagged for a closer look

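The knockout arrays were also scanned in green, a channel that no comparison above uses and that the labels assign no RNA. In it 17 of the 20 member probes (85%) were well above background on all 4 knockout arrays, against 2253 of 26490 named probes (8.51%), which is why it is listed here. Gapdh A_55_P2186027 had the brightest green signal, with median intensities of 528, 435, 729 and 380. Pfkl stood at 20, 30, 24 and 21 and Hk2 at 28.5, 19, 26 and 20, and neither was well above background in green on any knockout array. Where this green signal comes from was not tested.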

How the results depend on the processing

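Of 771 values of single probes recomputed under an alternative, 674 kept their direction and call, 22 gained and 12 lost a call. Another 51 changed sign (1 of them came to 0) without passing in either fit, 14 of them in the authors' deposited table, 9 under scaling to the 75th percentile and 28 with an array left out. In 12, the sign turned and at least 1 of the fits had passed, all with the authors' table. There, against WT, ATF6aKO gave Aldoa 3.15, Pgk1 3.36, Gapdh A_55_P2037425 1.30 and A_55_P1984284 0.20. ATF6bKO gave Slc2a1 4.95, Pgam1 3.70, Pkm 2.05, Aldoa 3.30, Pgk1 3.39, and Gapdh A_55_P1984284 0.40, A_55_P2037425 1.40 and A_55_P2186027 3.97. With it 14 and 15 member probes were called against WT (73.7% and 78.9%, beside 52.3% and 53% of all probes), and their medians were 3.15 and 3.30, and -0.10 for ATF6aKO against ATF6bKO, beside 1.05 over all probes against WT. Its knockout columns hold another channel. With 1 value per gene, 4 genes (ATF6aKO) and 5 (ATF6bKO) were called by the brightest probe, and 4 and 3 by the mean over probes, out of fewer values by construction. In the main fit 41.9% and 36.5% of all probes were called. The share of all genes called with 1 value per gene is not given here, so these counts are not read further.

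Leaving out each array gave 5935 to 10271 probes called for ATF6aKO against WT, 3790 to 8857 for ATF6bKO against WT and 0 to 23 for ATF6aKO against ATF6bKO. The lowest counts were 5935 without ATF6aKO replicate 2, 3790 without ATF6bKO replicate 1 and 4680 without ATF6bKO replicate 2, and the 23 (1 higher, 22 lower) came without ATF6aKO replicate 2. Member probes called numbered 6 to 9, 7 to 9 and 0, and their medians were -0.098 to 0.0733, -0.518 to -0.179 and 0.125 to 0.548. Scaling normexp values to the 75th percentile gave 6864 higher and 4460 lower against WT for ATF6aKO and 6359 and 3776 for ATF6bKO, beside 5002 and 5433, and 4126 and 4958, with the median of all probes at 0.156 and 0.178.

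Replicate numbers did not pair the samples (correlations of deviations -0.146, -0.0681 and 0.199). With the replicate block 9701, 8319 and 0 probes were called, Gpi1 A_55_P1992208 passed in ATF6aKO (adjusted p = 0.0296) and Pgk1 in ATF6bKO did not (0.0701). Pgk1 also missed on the processed signal (0.0772), with no filter (0.0508) and with a trended, robust variance (0.062). Gapdh A_55_P1994258 passed with that variance (0.0362 and 0.0232). Causes were not tested beyond the constructions named. Pfkl, Ldha A_55_P2012984 and A_55_P2141878 and Gapdh A_55_P2037425, A_55_P2088912 and A_55_P1984284 kept their calls against WT under every alternative that tests probes singly, apart from the authors' table.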
